A study of Drosophila melanogaster with 10 samples.

Results

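The comparison described here sets animals labelled Rbf-KD against controls in the larval notum, the dorsal part of the wing disc that carries the precursors of the adult flight muscles. It uses the 6 notum libraries of a series of 10, chosen by their labels, 3 per genotype. The other 4 libraries are flight muscle of the same genotypes, 2 each, dissected from pharate animals near 96 h of pupal life. Every animal had a GAL4 driver under a Mef2 enhancer, active in the muscle lineage, together with P{UAS-Dicer2.D}1, a source of extra Dicer-2 that makes RNA interference stronger. Control animals, labelled WT, carried P{UAS-mCherry-RNAi}attP2, and the others carried P{UAS-Rbf-RNAi[GD:10696]}. Control animals therefore also expressed a hairpin, and neither genotype lacked the driver or the Dicer-2 transgene. Tissue was taken from wandering larvae of the third instar, kept at 25 °C. The hairpins come from different transgenes, so the hairpin and anything else that differs between the stocks cannot be told apart. The labels do not say which animals went into which library, and the p-values measure only the spread between these libraries.

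Rbf is the main retinoblastoma-family protein of the fly. It binds the activator E2f1 and the repressor E2f2, each paired with Dp, and holds E2F target genes down until cyclin-dependent kinases phosphorylate it. The known targets are genes of DNA replication, nucleotide synthesis, the entry into S phase and mitosis. Adult muscle precursors lie beneath the notum epithelium, divide through larval life under Notch and Wingless signals, and fuse and differentiate in the pupa. Mef2 is a transcription factor of the muscle lineage whose targets include genes of the contractile apparatus.

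The notum libraries held 42097050 to 55401980 gene counts each, and a count of 0 allows up to 0.0541 to 0.0713 CPM (counts scaled to 1e6 per library; the limit is 3 counts). Such limits cover counting error only. Markers of both tissue layers were read in every library. The 9 adult muscle precursor markers summed to 560.1, 803.0 and 623.6 CPM in control and 604.8, 787.2 and 734.4 CPM in Rbf-KD, and twi, a defining marker of these precursors, was read at 13.5 to 37.6 CPM. The 18 notum epithelium markers summed to between 3473 and 5185 CPM. The driver acts in the muscle lineage, so the RNA measured includes cells outside it, and in such bulk tissue fewer cells of a type and less RNA per cell cannot be told apart.

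The libraries did not vary by genotype alone. The first principal component held 61.9% of the variance and set both replicate 1 libraries, at -43.97 for control and -48.31 for Rbf-KD, apart from the other 4, which lay between 5.992 and 31.75. The second component, with 16.1%, separated the genotypes, with control at -10.15, -16.89 and -23.18 and Rbf-KD at 15.9, 19.29 and 15.03. The summed ecdysone-response list was lowest in the replicate 1 library of each genotype. The hormone-inducible gene ImpE1 stood at 169.9, 748.9 and 443.7 CPM in control and 309.9, 735.4 and 552.2 CPM in Rbf-KD. The phototransduction channel gene trp ran the other way, at 3.91, 0.0743 and 0.398 CPM in control and 7.72, 0.119 and 0.193 CPM in Rbf-KD. Libraries of the same replicate number moved together for numbers 1 and 2. For number 3 this was weaker, and Rbf-KD replicate 3 followed control replicate 2 (correlation of deviations 0.532) more than control replicate 3 (0.225). Values are therefore given from the unpaired fit and, where it changes the call, also from the fit with the replicate number as a block, called the paired fit.

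**Figure D1:**
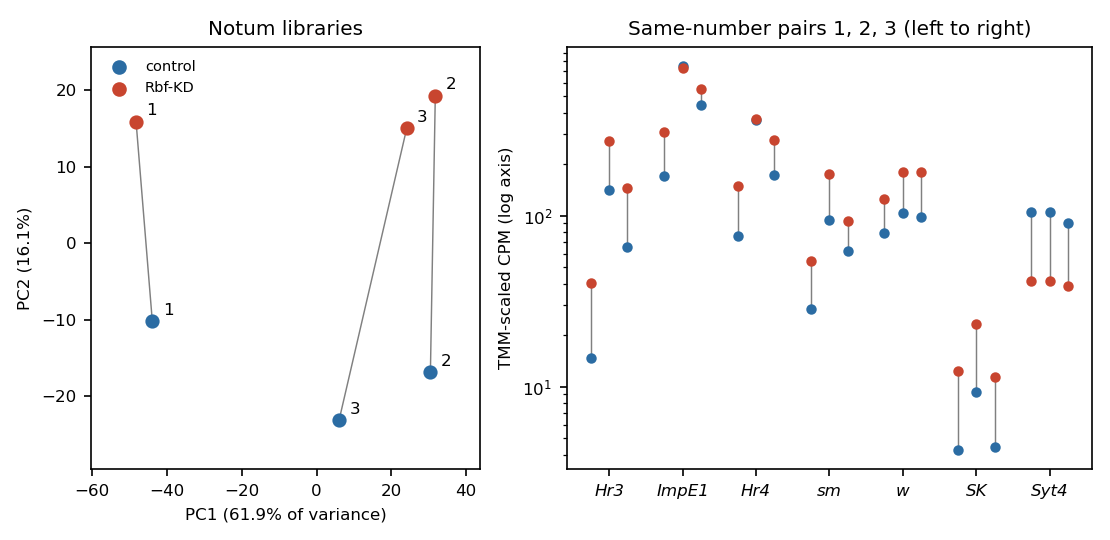
The left panel plots the 6 notum libraries on the first 2 principal components of log2 CPM, with lines joining libraries of the same replicate number. The right panel plots TMM-scaled CPM on a log axis for 7 genes, each with pairs 1 to 3 from left to right: in Hr3 the Rbf-KD library is above its control in every pair while the groups overlap (14.8 to 142 against 40.4 to 274 CPM), and in Syt4 the groups are apart.

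The targeted gene was examined first. The gene Rbf (FBgn0015799), on chromosome X, gave 4346, 5179 and 4643 counts in control and 4025, 4081 and 4336 in the libraries labelled Rbf-KD. Scaled by TMM, a correction for library composition, this was 77.5, 128 and 103 CPM against 85.8, 80.8 and 92.8 CPM. The groups overlapped: control replicate 1 was the lowest of all 6 libraries, and in pair 1 Rbf was higher in Rbf-KD (log2 0.15) while it was lower in pairs 2 and 3 (-0.67 and -0.15). The estimate was -0.25 on the log2 scale (SE 0.18, 95% interval -0.67 to 0.17, edgeR adjusted p = 1.00). A fall in Rbf mRNA was thus not detectable in this bulk tissue, which includes cells outside the driven lineage. Rbf is represented by 1 transcript in the table, and the counts do not show which part of it was read. In flight muscle the count went against the label, with 187 and 203 counts in control and 1210 and 1454 in Rbf-KD. The libraries are therefore called by their labels throughout.

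The transcripts of the proteins that Rbf works with did not pass the test. E2f1 had a log2 fold change of -0.04 (SE 0.11, 95% interval -0.31 to 0.23), E2f2 of 0.05 (SE 0.08, interval -0.13 to 0.23) and Dp of 0.09 (SE 0.12, interval -0.20 to 0.39). Mef2, whose enhancer drives the hairpin, was at 96.2, 153 and 115 CPM in control and 104, 140 and 130 CPM in Rbf-KD (log2 0.04, interval -0.41 to 0.48). Dcr-2, which the transgene adds to, was at 3598.5 to 4158 CPM in control and 2912 to 4181 CPM in Rbf-KD (log2 -0.08, SE 0.16).

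The question of the comparison is which genes change when the Rbf hairpin is driven in the muscle precursors. In the unpaired fit 9 of 12203 genes were higher in Rbf-KD (0.0738%) and 10 were lower (0.0819%), at a Benjamini-Hochberg adjusted p under 0.05. In the paired fit 38 were higher (0.311%) and 41 lower (0.336%), and these 79 genes (0.647%) included all 19, which are 0.156% of the genes tested. At an unadjusted p under 0.05 there were 496 genes (4.06%) in the unpaired fit and 756 (6.2%) in the paired fit. For each of the 19 the groups did not overlap, as was so for 8.28% of all tested genes. The 19 were selected on these same values, so this follows in large part from the selection and is no separate evidence. The largest differences were near all-or-none: the receptor gene mthl8 was read in Rbf-KD and was near 0 in control, while the cytochrome P450 gene Cyp6a17, CG7213 and the tryptophan oxygenase gene v were near 0 in Rbf-KD. The cell adhesion gene Dscam4 and the phosphate transporter gene NaPi-III fell by 2.41 and 2.02 on the log2 scale, and CG40470 rose by 3.78.

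**Figure D2:**
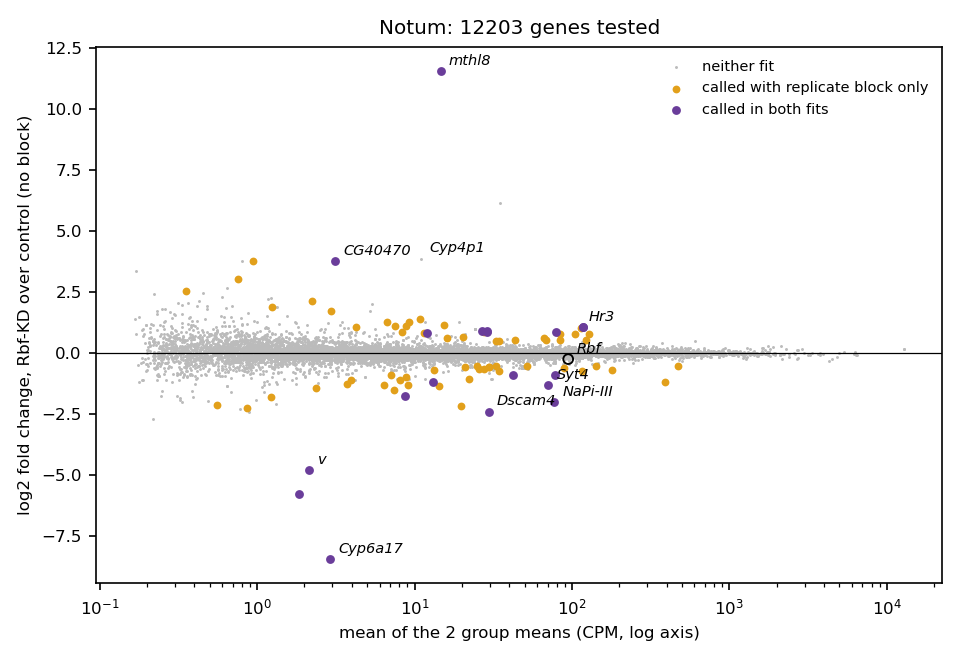
Each point is 1 of the 12203 tested genes, with the mean of the 2 group means on a log axis in CPM and the log2 fold change of Rbf-KD over control from the unpaired fit. The 19 genes that passed both fits and the 60 that passed the paired fit only are coloured, and Rbf (open circle) lies among the genes that did not pass.

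With any 1 library left out, which also leaves fewer samples for the test, fewer of the 19 genes passed. Without control replicate 1, 14 of the 19 genes passed, without control replicate 2 there were 3, and without control replicate 3 there were 2. Without Rbf-KD replicate 1, 13 of the 19 passed, without replicate 2 there were 4, and without replicate 3 there was 1. The gene that passed in all 6 of these fits was mthl8. Fold changes moved less than the calls: over the 6 fits Syt4 ranged from -1.23 to -1.39, NaPi-III from -1.83 to -2.11 and CG5535 from 0.88 to 0.97. With both replicate 1 libraries left out together, all 19 passed, among 40 genes called. Direction was the same in each pair for all 19 genes, while 23.3% of all tested genes had the same sign in the 3 pairs. The 19 were selected on these same libraries and their groups do not overlap, so their shared direction is no separate evidence.

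Receptor genes of the Methuselah family, G protein-coupled receptors named for a gene that affects life span in flies, gave the largest change. mthl8 (FBgn0052475, 3L) had 0, 0 and 1 counts in control and 1136, 1560 and 1524 counts in Rbf-KD, which is 24.2, 30.9 and 32.6 CPM in the latter. The ratio of normalised counts was 4149, with a 95% counting interval from 744 to 163928 (edgeR adjusted p = 1.91e-04, paired 2.02e-08). mthl4 (FBgn0034219, 2R) was at 105, 93.1 and 105 CPM in control and 54.4, 53.3 and 53.9 CPM in Rbf-KD (log2 -0.91, SE 0.07, edgeR adjusted p = 0.0113). Its neighbour mthl3, the next tested gene on the arm, was at 157, 131 and 145 CPM against 86.9, 84.8 and 91.0 CPM. It missed the threshold in the unpaired fit (adjusted p = 0.0504) and passed in the paired fit (log2 -0.72, SE 0.09, adjusted p = 0.00338). Thus 1 member of the 15 tested rose and 1 fell in the unpaired fit, where 0.156% of all genes passed. In the paired fit 1 rose and 2 fell, where 0.647% of all genes passed. The median over the family was -0.06, beside -0.01 over all genes. This and the other family lists were chosen with earlier results of these data known, so their counts are no separate result about the families. No single direction held for the family.

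Among the named families, the synaptotagmin gene Syt4 and the adhesion gene Dscam4 were lower. Syt4 (FBgn0028400, 3R) encodes a synaptotagmin that acts in muscle in retrograde signalling at the larval neuromuscular junction. It was at 106, 106 and 90.4 CPM in control and 41.6, 41.3 and 38.6 CPM in Rbf-KD, with the groups well apart (log2 -1.31, SE 0.09, edgeR adjusted p = 0.00783). The call was lost without Rbf-KD replicate 2 (log2 -1.29, adjusted p = 0.0691) or replicate 3 (-1.28, 0.107). Esyt2, an extended synaptotagmin that links the endoplasmic reticulum to the plasma membrane, was lower in the paired fit alone (log2 -0.91, SE 0.17, adjusted p = 0.0437). They were 2 of 7 tested members of the synaptotagmin list that passed in either fit, beside 0.647% of all genes tested. The sum of the list, most of it Syt4, was 139.3, 128.4 and 117.3 CPM in control and 73.6, 58.68 and 57.38 CPM in Rbf-KD.

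Dscam4 (FBgn0263219, 3L), a member of the Dscam family of immunoglobulin cell adhesion molecules, was at 40.2, 56.5 and 52.5 CPM in control and 12.6, 6.95 and 8.54 CPM in Rbf-KD. Every Rbf-KD library was below every control (log2 -2.41, SE 0.24, edgeR adjusted p = 0.0224). The call held without control replicate 1 (adjusted p = 0.0415) or Rbf-KD replicate 1 (0.0278) and was lost without any 1 of the other 4 libraries (adjusted p from 0.153 to 0.253), with log2 values of -2.20 to -2.37. Among its relatives Dscam1 had a log2 fold change of -0.05 (SE 0.34) and Dscam2 of 0.77 (SE 0.59), and neither passed. The next tested gene on the arm, CG7213, fell from 2.3, 4.48 and 4.18 CPM to 0.0853, 0.0198 and 0.0856 CPM, a ratio of 56.4 (95% counting interval 29.5 to 124, edgeR adjusted p = 0.0205). A further gene of this stretch, tut, passed in the paired fit only (log2 -0.99, SE 0.17, adjusted p = 0.0352).

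Transport and metabolism genes were also among the 19. NaPi-III (FBgn0260795, 3L), named as a sodium-phosphate transporter, was at 123, 124 and 125 CPM in control and 34.5, 23.2 and 33.7 CPM in Rbf-KD (log2 -2.02, SE 0.16, edgeR adjusted p = 0.0113). The 3 control libraries were nearly equal and the 3 Rbf-KD libraries all lower. It was the 1 of 11 tested phosphate transporter genes that passed in either fit, beside 0.647% of all genes. The highest value in the list was 0.15. The call was lost without control replicate 2 (log2 -1.98, adjusted p = 0.0978), control replicate 3 (-2.02, 0.157) or Rbf-KD replicate 3 (-2.11, 0.107). CG5535 (3L) rose from 19.6, 17.6 and 19.2 CPM to 35.6, 33.7 and 36.4 CPM (log2 0.91, SE 0.08, edgeR adjusted p = 0.0114).

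The gene Cyp6a17 (FBgn0015714, 2R), a cytochrome P450 gene known for its part in temperature preference, had 341, 259 and 221 counts in control and 2, 0 and 0 in Rbf-KD. The ratio of normalised counts was 417 (95% counting interval 115 to 3453, edgeR adjusted p = 0.0113). It has close relatives in the P450 family, and reads shared with them could have been split in counting. Cyp6a23 was at 2.91, 1.81 and 1.68 CPM in control and 1.17, 0.0792 and 0.235 CPM in Rbf-KD, and did not pass (log2 -2.10, edgeR adjusted p = 1.00). No member of the separate detoxification list, 17 genes tested, passed in either fit. The highest value in that list was 3.88 for Cyp4p1 (SE 1.01), described at the end.

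The list of transgene marker and driver genes, 5 tested, held v, w and y, of which v passed in both fits. v (vermilion, FBgn0003965, X) encodes the tryptophan dioxygenase of ommochrome synthesis and is used as a marker on some fly transgenes and as a mutant background for them. It was at 4.48, 3.89 and 4.09 CPM in control and 0.171, 0.119 and 0.150 CPM in Rbf-KD (log2 -4.80, SE 0.29, edgeR adjusted p = 0.00558). w (white, X), the pigment precursor transporter whose short form marks many P-element transgenes, was at 79.0, 104 and 98.3 CPM against 125, 180 and 180 CPM. It passed in the paired fit only (log2 0.78, SE 0.09, adjusted p = 0.00176). y (yellow, X), a gene of melanin formation, was at 4.46, 3.29 and 2.63 CPM against 1.90, 1.17 and 0.727 CPM and also passed in the paired fit only (log2 -1.51, SE 0.25, adjusted p = 0.0271). The body colour gene e (ebony, 3R), outside that list and picked out after its values were seen, passed in the paired fit only (log2 0.67, adjusted p = 0.0153). So v and y were lower and w higher in Rbf-KD, and the hairpin and the markers of the stocks cannot be told apart as the source.

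Several called genes share sequence or position with another annotated feature, so which of them changed is uncertain. Unc-115b, an actin-binding LIM protein gene, and p24-2, a member of the p24 family of cargo receptors (both 3R), have identical counts and rose from 73.5, 76.1 and 76.8 CPM to 138, 168 and 174 CPM (log2 1.08, SE 0.10, edgeR adjusted p = 0.0161). Unc-115a, 2 tested genes from p24-2, was higher in the paired fit only (log2 0.76, adjusted p = 0.00212). CG32212 (3L) fell by 1.19 on the log2 scale (SE 0.11, edgeR adjusted p = 0.0167). Of its length 70.5% overlaps other features, namely the hairpin RNA gene hpRNA:CR33940 and a Stalker4 element. Rnf11 (chromosome 4), a RING-finger gene, fell by 0.92 (SE 0.08, adjusted p = 0.0161) with 58.1% of its length under a Stalker2 element. The sodium channel gene rpk (3R) rose by 0.85 (SE 0.09, adjusted p = 0.0224) and overlaps an antisense RNA over 60.1% of its length.

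The remaining called genes had no such large overlap. CG40470 (3L) was at 0.357, 0.396 and 0.508 CPM in control and 6.57, 4.12 and 6.76 CPM in Rbf-KD (log2 3.78, SE 0.30, edgeR adjusted p = 0.0113). The groups were far apart, and the call was lost without control replicate 2 (log2 3.79, adjusted p = 0.111), control replicate 3 (3.94, 0.157) or Rbf-KD replicate 3 (3.66, 0.122). CG3649 (2R) fell from 13.3, 14.9 and 12.2 CPM to 4.05, 4.08 and 3.68 CPM (log2 -1.77, SE 0.13, adjusted p = 0.0113). Smaller increases were found for pst (3L), a gene known for resistance to Drosophila C virus (log2 0.87, SE 0.10, adjusted p = 0.0392), and pinta (3R), a retinoid-binding protein gene (0.84, SE 0.09, adjusted p = 0.0285). The guide RNA snoRNA:Psi28S-2949 (2R), which directs a modification of ribosomal RNA, rose by 0.91 (SE 0.10, adjusted p = 0.0285).

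**Figure D3:**
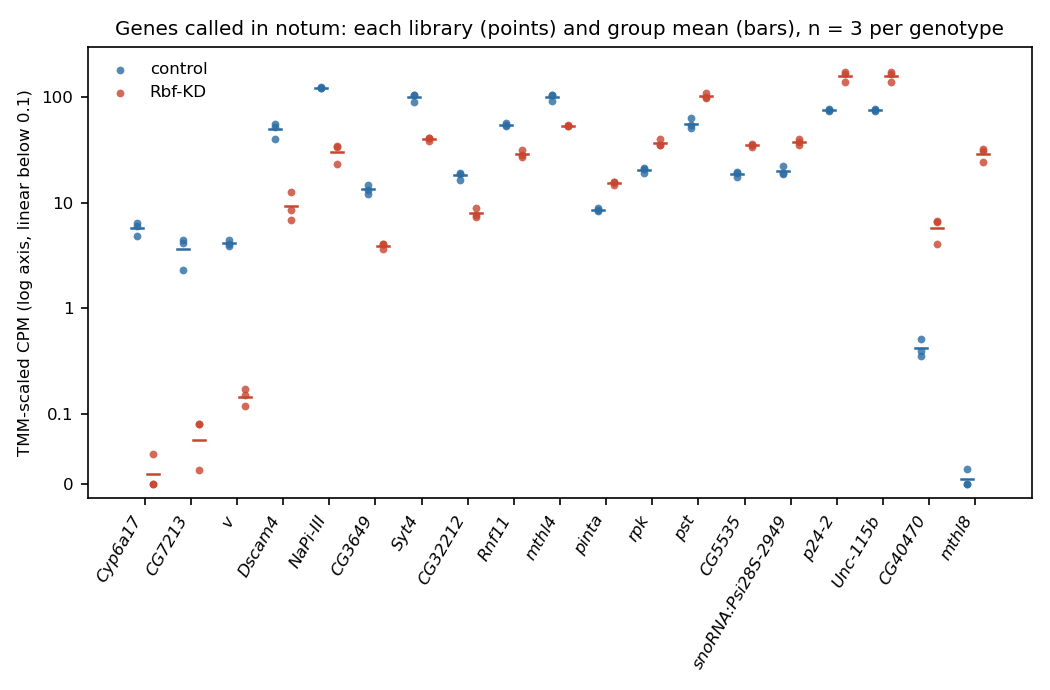
TMM-scaled CPM of the 19 genes that passed in the unpaired fit, on a log axis that is linear below 0.1, with 1 point per library and a bar at the mean of each genotype (n = 3). The genotypes do not overlap for any of the 19 genes, and the range runs from Cyp6a17, near 0 in Rbf-KD, to mthl8, near 0 in control.

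A further 60 genes passed in the paired fit only, 29 higher and 31 lower. Of those with a mean of at least 1 CPM, the lowest was Obp99a (3R), an odorant-binding protein gene, at 40.9, 24.0 and 31.8 CPM in control and 10.4, 4.6 and 6.4 CPM in Rbf-KD (log2 -2.22, SE 0.12, edgeR adjusted p = 1.33e-05). Among the others lower in Rbf-KD were CG18557 (-1.78), CG9514 (-1.50) and PGRP-LC, the membrane receptor for peptidoglycan of the Imd pathway (-1.30, adjusted p = 0.0191). l(2)34Fc (-1.39) and CR42842 (-1.33) overlap an antisense RNA and a hairpin RNA and are uncertain. Other genes of this direction were CG17217 (-1.27), snoRNA:Psi28S-3342 (-1.19), CG1698 (-1.11), CG10863 (-1.11), CG14715 (-0.74) and CG15353 (-1.08), the last uncertain because an antisense RNA overlaps 70.3% of its length. The groups did not overlap for 52 of the 60 genes, beside 8.28% of all tested genes. All 60 had the same direction in the 3 pairs, beside 23.3% of all tested genes, which the block favours. Both counts follow in part from the selection by that fit and are no separate evidence.

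Higher in the paired fit only were the maltase gene Mal-B2 (log2 2.13), CG4752 (1.94) and hig (1.85), which encodes a protein of the synaptic cleft. SK (X), a calcium-activated potassium channel gene, was at 4.26, 9.29 and 4.44 CPM in control and 12.3, 23.3 and 11.4 CPM in Rbf-KD (log2 1.40, SE 0.14, adjusted p = 8.00e-04). m (miniature, X), a gene of the wing cuticle, was at 4.14, 15.9 and 8.62 CPM against 9.09, 36.6 and 17.6 CPM (log2 1.12, SE 0.11, adjusted p = 9.36e-04). Replicate 2 was the highest library of each genotype for both genes. The groups overlapped for m and not for SK, and each Rbf-KD library was above the control of its number. CG32373 (1.29), CG15529 (1.27), CG34244 (1.10), CG7906 (1.10), the cuticle protein gene Cpr49Ah (1.09), CG6654 (0.87), CG11498 (0.86) and CG14855 (0.82) followed.

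Ecdysone, the steroid of moulting and metamorphosis, drives a cascade of nuclear receptors in the wandering larva. Hr3 (2R), a nuclear receptor of that cascade, was at 14.8, 142 and 65.8 CPM in control and 40.4, 274 and 145 CPM in Rbf-KD. The groups overlapped. The unpaired estimate was 1.04 on the log2 scale (SE 0.91, edgeR adjusted p = 1.00), while in the paired fit it was 1.17 (SE 0.11, adjusted p = 6.71e-04). Hr3 overlaps other annotated genes over 80.6% of its length, so part of its counts may belong to them. It was the 1 of 23 tested ecdysone-response genes that passed in either fit, beside 0.647% of all genes. The list's median was 0.09, with 13 members above 0. The later-acting nuclear receptor ftz-f1 was at 13.4, 14.4 and 13.9 CPM in control and 9.51, 8.003 and 10.9 CPM in Rbf-KD and did not pass (log2 -0.55, edgeR adjusted p = 0.482). The RNA-binding protein gene sm (2R), which was also low in both replicate 1 libraries, was higher in the paired fit only (28.5, 94.5 and 62.5 CPM against 54.6, 174 and 92.8 CPM, log2 0.80, adjusted p = 0.00338).

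No gene of the groups that Rb and E2F are known to control passed in either fit. Of 12 tested components of Rb/E2F and the dREAM complex, which holds E2F targets and other genes repressed, 0 passed in either fit, and the median log2 fold change was -0.06. The 46 DNA replication genes had a median of -0.0042, with 22 above 0 and 24 below, and 1 member had an unadjusted edgeR p under 0.05, as did 4.06% of all genes. That member was Psf1, a subunit of the GINS complex of the replication helicase, at 14.6, 14.3 and 13.5 CPM in control and 10.6, 10.8 and 10.8 CPM in Rbf-KD (log2 -0.39, edgeR adjusted p = 0.363). The sliding clamp gene PCNA was at 106, 121 and 104 CPM against 105, 94.9 and 111 CPM (log2 -0.09), and the helicase gene Mcm5 at 107, 92.6 and 98.5 CPM against 109, 96.6 and 103 CPM (log2 0.05). Of 12 regulators of the entry into S phase and cell-cycle exit 0 passed, with a median of -0.04, and CycE, the cyclin of that step, overlapped between the groups (log2 0.05, SE 0.15). The median SE of a replication gene was 0.098 on the log2 scale. The absence of calls thus limits the size of a change in the whole tissue and does not show that there was none. The RNA includes cells outside the driven lineage, so a change within the driven cells could be larger than that limit.

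Of 37 tested mitosis genes 0 passed in either fit. The median was -0.08, 28 were below 0 and 9 above, where 45.4% of all genes were above, and 5 had an unadjusted edgeR p under 0.05, beside 4.06% of all genes. Those of smallest unadjusted p were SMC2, a condensin subunit (137, 138 and 140 CPM against 118, 108 and 120 CPM, log2 -0.26), Bub3, a spindle checkpoint protein (-0.22), and pav, a kinesin of cytokinesis (-0.27). Among 19 DNA repair genes the median was -0.0019, and mre11, a nuclease of double-strand break repair, was at 70.1, 61.2 and 65.0 CPM in control and 81.6, 83.8 and 86.4 CPM in Rbf-KD without passing (log2 0.36, edgeR adjusted p = 0.339). Of 14 cell death genes 0 passed, with a median of 0.04. Glycolysis genes were below 0 in 13 of 14 cases, with medians of -0.18, -0.29 and -0.19 in the 3 pairs. Of these 14, 5 had an unadjusted p under 0.05, and 0 passed in either fit.

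No muscle gene of the lists passed in either fit. The 19 myoblast identity genes had a median of 0.05 and the 15 fusion genes of 0.06, with 13 of the latter above 0 and 0 called. Of all genes 45.4% were above 0, and the fusion medians in pairs 1 to 3 were 0.06, -0.0047 and 0.14. The largest value in the identity list, 2.45 for lbl (SE 1.04), came from 0.125, 0.297 and 0 CPM in control and 0.469, 0.416 and 1.41 CPM in Rbf-KD. These were low counts, of 7, 12 and 0 in control and 22, 21 and 66 in Rbf-KD. The 25 tested sarcomere genes had a median of -0.13 with a median SE of 0.36, and Act79B, TpnC4, TpnC41C and fln were too low to be tested. In the Notch list of 22 the median was -0.02, and in the Wnt and Hedgehog list of 17 it was 0.0032. Ribosome biogenesis (20 genes, median -0.05) and oxidative phosphorylation (29 genes, -0.03) also had 0 called in either fit.

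**Figure D4:**
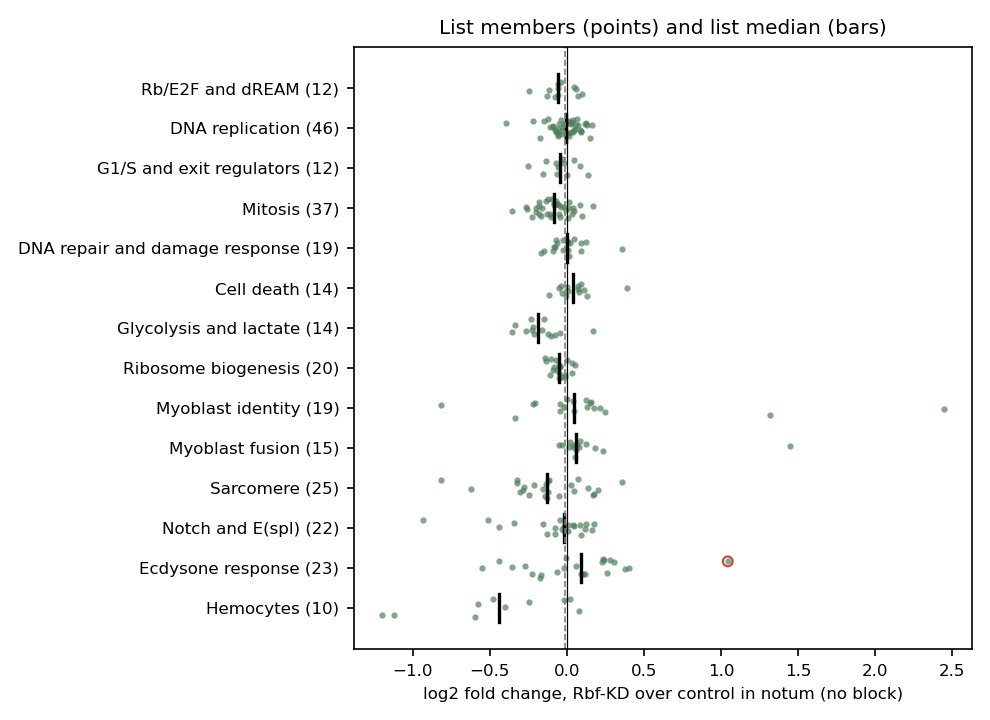
Each point is a tested member of the list named at the left (number of tested members in brackets), placed by its log2 fold change from the unpaired fit, with a bar at the list's median and a dashed line at the median of all genes (-0.01). The medians of the cell-cycle lists lie between -0.08 and 0, that of hemocyte markers at -0.44, and the ringed point is Hr3, which passed in the paired fit only.

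Markers of other cells were measured beside these groups. The 10 hemocyte markers summed to 304.3, 272.4 and 286.0 CPM in control and 221.2, 176.8 and 245.2 CPM in Rbf-KD, which do not overlap. Their median log2 fold change was -0.44, 8 of 10 were below 0, and 0 passed in either fit. The hemocyte gene Hml was at 15.5, 12.2 and 16.8 CPM against 8.68, 9.01 and 12.2 CPM, and the collagen IV genes Col4a1 (log2 -0.48) and vkg (-0.40), which fat body also makes, were likewise lower in value. The part of hemocytes in the results above was not tested. Fat body markers ranged from 147.9 to 799.7 CPM in control and from 177.7 to 448.0 CPM in Rbf-KD and overlapped. Sensory organ and neuron markers summed to 218.6, 278.6 and 255.9 CPM against 254.4, 262.6 and 249.4 CPM.

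Of the 19 called genes, 8 lay on 3L, which holds 19.4% of the tested genes, 5 on 3R (23.5%), 4 on 2R (21.5%), 1 on X (15.7%), 1 on chromosome 4 (0.705%) and 0 on 2L (18.9%). In the paired fit 20 of the 79 were on 3L and 22 on 3R. Among the 79 there were 9 pairs of neighbouring genes, at most 2 tested genes apart. They included tut with CG7213 and CG7213 with Dscam4 on 3L, mthl4 with mthl3 on 2R, and CG34244 with CG7906 on 3L. In each pair the members had the same direction. However, Unc-115b and p24-2 have identical counts, and Cyp9c1 and asRNA:CR43787 overlap and have nearly equal counts, so these pairs hold the same reads. CG15529 and CG11498 overlap each other over 20.5% and 20.9% of their lengths and may share part of their reads. Whether neighbours were more frequent among the 79 than among all tested genes was not tested.

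Flight muscle gave a second measure of the same genotypes in other libraries. There 19.4% of 10930 tested genes were higher and 20.3% lower in Rbf-KD, 39.8% in all, so calls were frequent there. Of the 19 notum genes 17 were tested in muscle, 8 passed in the same direction and 1 in the opposite one. The 8 were mthl8, CG40470, p24-2, Unc-115b, snoRNA:Psi28S-2949, Cyp6a17, Syt4 and Rnf11. mthl8 had 0 and 0 counts in control muscle and 275 and 310 in Rbf-KD (edgeR adjusted p = 0.00127). Syt4 was at 123 and 168 CPM in control muscle and 25.6 and 21.7 CPM in Rbf-KD (log2 -2.62, SE 0.20, adjusted p = 0.00104). Scaling to library totals, which moves the median of all muscle genes from 0.0965 to 1.2 on the log2 scale, brought Rnf11 from -1.04 to 0.07. On that scale 68.2% of muscle genes were higher and 5.07% lower, and 10 of the 19 passed in the same direction and 3 in the opposite one. CG5535 (1.28), pinta (2.02) and pst (0.86) then joined the first group, and v (1.56) and CG32212 (1.21) the second.

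The genotype effect itself differed between the tissues for 11 of the 19 genes, beside 30.3% of 13407 genes overall. This difference holds the notum values by which the 19 were selected. A larger share than among all genes thus follows in part from the selection. NaPi-III, lower in notum, was higher in muscle, at 4.27 and 3.99 CPM in control and 7.68 and 12.1 CPM in Rbf-KD (muscle minus notum 3.32, SE 0.32, edgeR adjusted p = 1.05e-04). v, almost lost in notum, was at 0.729 and 0.804 CPM against 1.12 and 0.973 CPM in muscle (difference 5.27, SE 0.38, adjusted p = 2.23e-05). CG40470 rose less in muscle than in notum (difference -3.03, SE 0.31, adjusted p = 1.49e-04, and -1.96 with library totals). For Syt4 the difference was -1.28 (SE 0.19, adjusted p = 0.00104), but -0.20 with library totals (adjusted p = 0.431). For p24-2 (-0.03, SE 0.20) and Rnf11 (-0.10, SE 0.23) the difference did not pass on the TMM scale, and with library totals it did (1.06 and 0.97). Of the 60 genes of the paired fit alone, 56 were tested in muscle, 11 passed in the same direction and 6 in the opposite one, or 19 and 13 with library totals.

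**Figure D5:**
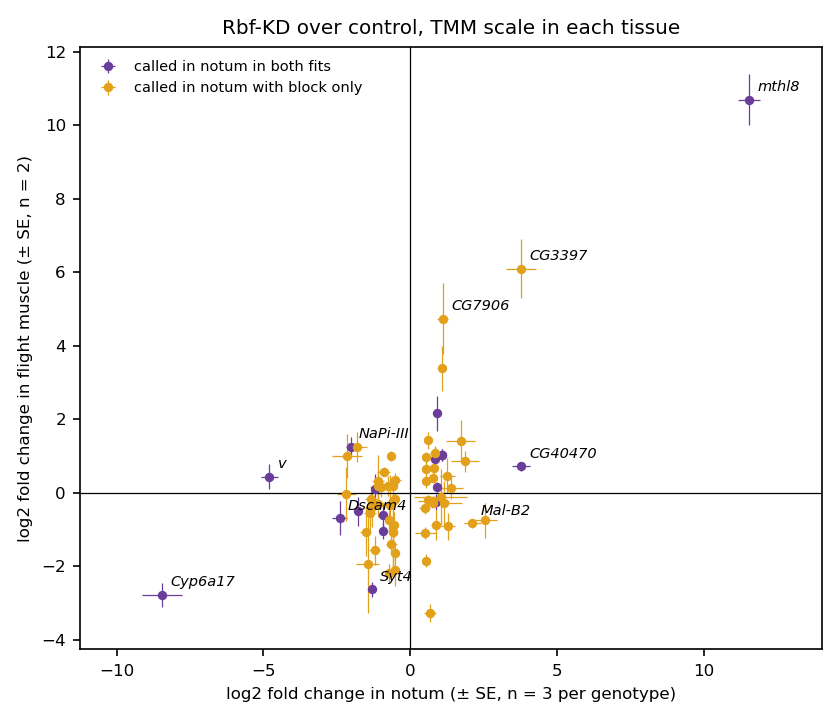
Log2 fold change of Rbf-KD over control in notum (horizontal, 3 libraries per genotype) and in flight muscle (vertical, 2 per genotype), each with its SE and on the TMM scale, for the notum genes also tested in muscle. mthl8 is high and Cyp6a17 and Syt4 are low in both tissues. NaPi-III and v are below 0 in notum and above 0 in muscle, where v did not pass on this scale.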

How the data were processed

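Total RNA was depleted of ribosomal RNA with Ribo-Zero and made into libraries with a stranded TruSeq kit, per the labels' protocols. The values deposited by the authors are raw counts, without normalization, of 29173 transcripts. The submitters' processing notes name the build BDGP5, TopHat2 2.1.1 and Bowtie2 2.3.2, featureCounts with Subread, DESeq2 1.14.1, and bcl2fastq 2.17.1.14 with FastQC. Annotation version and strand setting are not given in the sources used here, so reads of overlapping or antisense genes could not be told apart.

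Transcripts were matched by identifier to the BDGP6 annotation (27011, or 92.6%, in 15259 genes), and only chromosome arms are given because the builds differ. From 9.86% to 13.06% of notum counts fell on 2162 unmatched transcripts, which were left out of the gene fits. Each gene took the count of its transcript with the highest total. The 6 notum libraries were fitted alone in R 4.3.3 with edgeR 4.0.16 (filterByExpr, minimum count 10 and minimum total 15, TMM, robust quasi-likelihood F test, Benjamini-Hochberg adjustment). Muscle libraries were fitted alone, and the difference between tissues in a fit of all 10. The code was tested on simulated counts. Count ratios have exact 95% counting intervals.

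The replicate numbers are in the labels, which do not say what they share. Deviations from the group means correlated at 0.698, 0.615 and 0.225 within the 3 pairs, all above 0.1. Between unlike numbers, control 2 with Rbf-KD 3 gave 0.532, control 3 with Rbf-KD 2 gave 0.169, and the other 4 were below 0. The numbers were taken to pair the libraries, so values with the replicate block are given where they change a call. Named were Rbf, E2f1, E2f2, Dp, Mef2, Dcr-2, w, y and v, every gene called without the block, and, of genes called with it only, the 15 highest and 15 lowest with a mean of at least 1 CPM and the same direction in the 3 pairs. Of each of 38 lists, called members, defining members and at most 3 of smallest p were named. ImpE1, trp, Cyp6a23, e, Cyp9c1, asRNA:CR43787 and Unc-115a were chosen after their values were seen. Members and lists were chosen with earlier results of these data known. Alternatives were limma-voom (limma 3.58.1), DESeq2 1.42.0, other scalings and filters, and leaving libraries out.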

Additional observations from a re-analysis of the deposited data

Results flagged for a closer look

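For 36 of the genes named above the genotype effect differed between the tissues in the edgeR fit of all 10 libraries, where 30.3% of 13407 genes did so. Values are log2 fold changes in flight muscle minus those in notum. Among genes lower in notum the difference was 5.62 for Cyp6a17, 5.27 for v, 3.32 for NaPi-III, 3.09 for CG18557, 1.77 for Dscam4, 1.5 for Esyt2, 1.32 for CG32212, 1.30 for CG3649, 1.19 for PGRP-LC and 0.97 for CG14715, and for Syt4 it was -1.28. Among genes higher in notum the difference was -3.03 for CG40470, -2.92 for Mal-B2, -2.17 for CG15529, -1.70 for CG11498, -1.10 for pst, -1.03 for w, -0.71 for CG5535 and -3.92 for e. It was 3.77 for CG7906, 2.36 for CG34244 and 1.30 for snoRNA:Psi28S-2949. Among genes that did not pass in notum the difference was 5.47 for mre11, 5.41 for PCNA, 5.12 for Mcm5, 4.93 for pav, 3.44 for Cyp6a23, 3.24 for CycE, 2.99 for SMC2, 1.76 for Rbf, 1.55 for Hml, 1.26 for Col4a1, 1.17 for vkg, 0.92 for E2f2, 0.90 for ftz-f1 and -0.96 for E2f1. Scaled to library totals, where 54.9% of genes differed, the differences of Syt4 (-0.20), pst (-0.02), w (0.04), CG5535 (0.37), CG11498 (-0.63) and E2f1 (0.13) no longer passed. The difference also holds the change of stage and the composition of the muscle libraries. For genes that passed in notum it holds the notum values that selected them, so its sign follows in part from that selection.

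Among the transcripts matched to no gene by identifier, fitted together with the genes, 5 were higher and 4 lower in Rbf-KD notum with the replicate block (0.509% of 1767), and 1 and 1 without it. Such transcripts may hold reads of genes named above. For example, 1 of them had 59, 30 and 29 counts in control and 164, 162 and 192 in Rbf-KD. Mal-B2 had 60, 30 and 30 counts in control and 165, 162 and 192 in Rbf-KD.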

How the results depend on the processing

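In notum no called gene named by the rule changed sign under any alternative run. Without the block 9 genes were higher and 10 lower. With the replicate block these were 38 and 41, and with the block and no robust option 25 and 25. DESeq2 gave 60 and 70, all 19 genes included. Leaving out both replicate 1 libraries gave 21 and 19, and the same with the block, an alternative chosen after seeing the data, 47 and 41. The fit of all 10 libraries gave 7 and 7, with 12 of the 19 genes among them. Leaving out each notum library in turn gave 1 to 8 genes higher and 0 to 10 lower. Limma-voom, both other scalings, no filter, the sum over transcripts and the fit without the robust option stayed within 1.5 times of the counts without the block. The block changed no call of the gene lists beyond those given beside them. In muscle, same-direction calls among the 19 ranged from 6 to 10 and differences between tissues from 9 to 14, but library-total scaling took opposite calls from 1 to 3 and turned Rnf11 from -1.04 to 0.07, mthl4 from -0.60 to 0.52 and CG3649 from -0.49 to 0.60. Among the 60 it took opposite calls from 6 to 13 and turned Mal-B2 from -0.83 to 0.28. At 3 libraries per genotype and a median SE of 0.149, small changes could not be called.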

Other observations

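A pair of cytochrome P450 genes on 2R had the next largest increases and passed in neither fit. Cyp4p2 was picked out after its values were seen, and Cyp4p1 is a member of the detoxification list. Cyp4p2 was at 2.43, 0.0991 and 0.155 CPM in control and 59.9, 74.0 and 71.7 CPM in Rbf-KD (log2 6.16, SE 0.94, edgeR adjusted p = 0.132, and 0.632 with the replicate block). Cyp4p1 was at 3.64, 0.124 and 0.265 CPM in control and 20.6, 20.1 and 21.2 CPM in Rbf-KD (log2 3.88, SE 1.01, adjusted p = 0.555). In both genes control replicate 1 stood above the other controls and below every Rbf-KD library. In flight muscle both were higher in Rbf-KD, with log2 fold changes of 7.94 (edgeR adjusted p = 3.96e-04) for Cyp4p2 and 4.62 (0.00164) for Cyp4p1. The source of the higher Cyp4p1 and Cyp4p2 values in control replicate 1, which had 0 counts of mthl8, was not tested.

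CG3397 (3R), also picked out after its values were seen, was at 0.161, 0.0743 and 0.133 CPM in control and 2.69, 1.29 and 1.31 CPM in Rbf-KD. It passed in the paired fit only (log2 3.80, edgeR adjusted p = 0.00102) and was higher in Rbf-KD muscle too (6.10, adjusted p = 0.00368).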
